A study of Mus musculus with 12 samples.

Results

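The genes described here are the ligands and receptors of the epidermal growth factor (EGF) family in TM3 cells, a mouse Leydig cell line from immature testis, after exposure to methoxyacetic acid (MAA), the active metabolite of the solvent ethylene glycol monomethyl ether. The named members were Areg, Ereg, Hbegf, Tgfa, Btc, Egf and Nrg1 among the ligands and Egfr, Erbb2 and Erbb3 among the receptors, 10 genes in all. The gene column of the arrays holds accessions rather than symbols, so probes were matched through their RefSeq accession. That match gave 16 probes for 8 of the 10 members, of 41174 probes in all. Of these, 22072 probes matched a symbol, for 15972 symbols. Nrg1 and Erbb2 had no matched probe and were not analysed here. The family was picked because Areg was among the largest increases after 3 h of 5 mM MAA, so the members were chosen by log2 ratios at 5 mM and 3 h, and every value of theirs there is a description without a test.

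TM3 cells received medium with 5 mM or 1 mM MAA, or medium alone, for 3, 8 or 24 h. RNA of each of the 6 treatments was hybridised against RNA of untreated cells of the same time on 2 two-colour Agilent arrays with exchanged dyes, 12 arrays on 3 slides. Each array carried a pool of 3 cultures, and the MAA pool of replicate 2 came from cultures other than those of replicate 1. TM3 is 1 established line without alleles or transgenes that differ between groups, and the arrays of 5 mM and 1 mM at one time may share control cultures. Per array, 61.5% to 70.3% of probes were well above background in the control channel and 62.1% to 69.2% in the MAA channel. The number of arrays limits the precision, with a median standard error of 0.15 for a log2 ratio of MAA over control. Over all probes the log2 ratio had a median of -0.10 in the 3 h, 5 mM treatment and of -0.07 to 0.03 in the others. Across probes, Pearson r between the 2 arrays of a treatment was 0.496, 0.63 and 0.644 at 3, 8 and 24 h of 5 mM. At 1 mM this r was only -0.134, 0.133 and 0.309 at the same times.

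Ligands of the EGF family are made as membrane-anchored precursors that metalloproteases cut at the cell surface. They bind Egfr directly, or Erbb3 and its relatives in the case of the neuregulins, and paired receptors signal through the Ras, ERK and phosphatidylinositol kinases. In the testis and ovary, amphiregulin, epiregulin and betacellulin are known as genes that gonadotropin signals induce through cyclic AMP, and the ligands they encode can stimulate steroid synthesis. Cultured Leydig cells carry Egfr and respond to EGF.

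Areg is the member on which most results turn, and the letters before its start are printed because they hold a full cyclic AMP response element. The 250 bases before the start in the RefSeq promoter table (build GRCm38.p6, chr5:91139349-91139598, plus strand) are given in lower case with the searched motifs in capitals.

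Areg promoter: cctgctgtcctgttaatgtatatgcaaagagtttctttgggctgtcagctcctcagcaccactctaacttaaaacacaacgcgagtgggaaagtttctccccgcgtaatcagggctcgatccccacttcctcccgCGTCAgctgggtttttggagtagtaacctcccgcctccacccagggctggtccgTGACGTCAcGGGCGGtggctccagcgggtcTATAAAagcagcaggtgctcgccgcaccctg

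The palindrome TGACGTCA, the cyclic AMP response element, began 61 bases before the start and was found in 1.79% of the 32851 promoters of the table (250 bases before to 50 after each start, both strands). The shorter core TGACG, which the palindrome contains on each strand, occurred 3 times in the Areg promoter and in 20.8% of all promoters. A GC box (GGGCGG, in 35.7% of promoters) began 52 bases and a TATA box (TATAAA, in 13.6%) 31 bases before the start. Another GC box, on the minus strand, lay at base 38 after the start, outside the letters printed. Neither the EGR site GCGGGGGCG (2.91%) nor the AP-1 site TGANTCA (7.81%) was present. The promoters of Tgfa, Btc, Egf and Egfr in the same table held no full TGACGTCA. Promoters of Ereg, Hbegf, Erbb3 and Nrg1 were not analysed here, so the element is not shown to be particular to Areg within the family. The Btc promoter held 1 core and the Tgfa and Egfr promoters 2 and 1 GC boxes. A match of letters says nothing of binding, and no measurement of binding was made here.

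The Areg probe and 1 of the Erbb3 probes are shown as examples, because each low signal below belongs to 1 such stretch of 60 bases. The letters of the other probes are not shown.

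Areg, A_52_P482897: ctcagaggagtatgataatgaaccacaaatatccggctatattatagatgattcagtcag

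Erbb3, A_51_P342050: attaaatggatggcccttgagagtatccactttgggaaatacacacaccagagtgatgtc

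A probe was called at a moderated p under 0.005 if its change also exceeded a fold threshold taken from the study, 2 for 5 mM arrays and 1.5 for 1 mM arrays. At 5 mM and 3 h, 5 of the 16 family probes were called up and 1 down, beside 2.02% and 1.74% of all probes. That contrast chose the family, and nothing is read from its count. After 8 h, 5 probes were called up and none down, beside 3.06% and 2.49% of all probes. After 24 h, 6 were called up and none down, beside 3.85% and 1.77%. At 1 mM, 2 probes were called up at 3 h (1.32% of all probes), 1 at 8 h (1.72%) and 2 at 24 h (3.26%). Calls down at 1 mM were 0, 0 and 1 at the same times, beside 0.627%, 0.656% and 1.41% of all probes. Called probes belonged to Areg, Hbegf, Ereg, Tgfa, Btc and Erbb3, and none to Egf or Egfr. Many of these probes were near background, and at 5 mM and 24 h the number of family probes called dropped from 6 to 1 after another background correction. Between treatments, 4 of the 16 probes differed from 8 h to 24 h of 5 mM (8.91% of all probes), 5 between concentrations at 8 h (10.1%), 3 between concentrations at 24 h (8.41%) and 1 from 8 h to 24 h of 1 mM (0.576%). Both counts between concentrations include 1 Erbb3 probe whose control channels were not well above background. The 4 differences from 8 h to 24 h of 5 mM fell to 0 when each array was centred on its median or when replicate 1 of either treatment was left out.

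Areg encodes amphiregulin, a ligand of Egfr with low affinity. Its log2 ratio was 3.05 and 2.77 on the arrays of 5 mM and 3 h, 3.24 and 3.56 at 8 h, and 3.16 and 3.44 at 24 h. On the 1 mM arrays it was 2.19 and 2.36 at 3 h, 1.57 and 1.70 at 8 h, and 0.78 and 0.72 at 24 h. All 12 arrays lay above 0, with 5 mM above 1 mM at each time and no overlap between them. Areg rose 10.6-fold at 5 mM and 8 h (log2 3.4, SE 0.112, limma adjusted p = 4.97e-06) and 9.87-fold at 24 h (log2 3.30, adjusted p = 4.82e-06 by limma). The lower concentration raised it 4.84-fold at 3 h (limma adjusted p = 0.000334), 3.11-fold at 8 h (0.00099) and 1.68-fold at 24 h (0.00686). The 3 h mean at 5 mM was 7.53-fold, number 7 among the increases of 25230 probes with an MAA channel above background. Its place among the increases was 10 at 8 h and 50 at 24 h of 5 mM, and 4, 34 and 1106 at the 3 times of 1 mM.

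**Figure D1:**
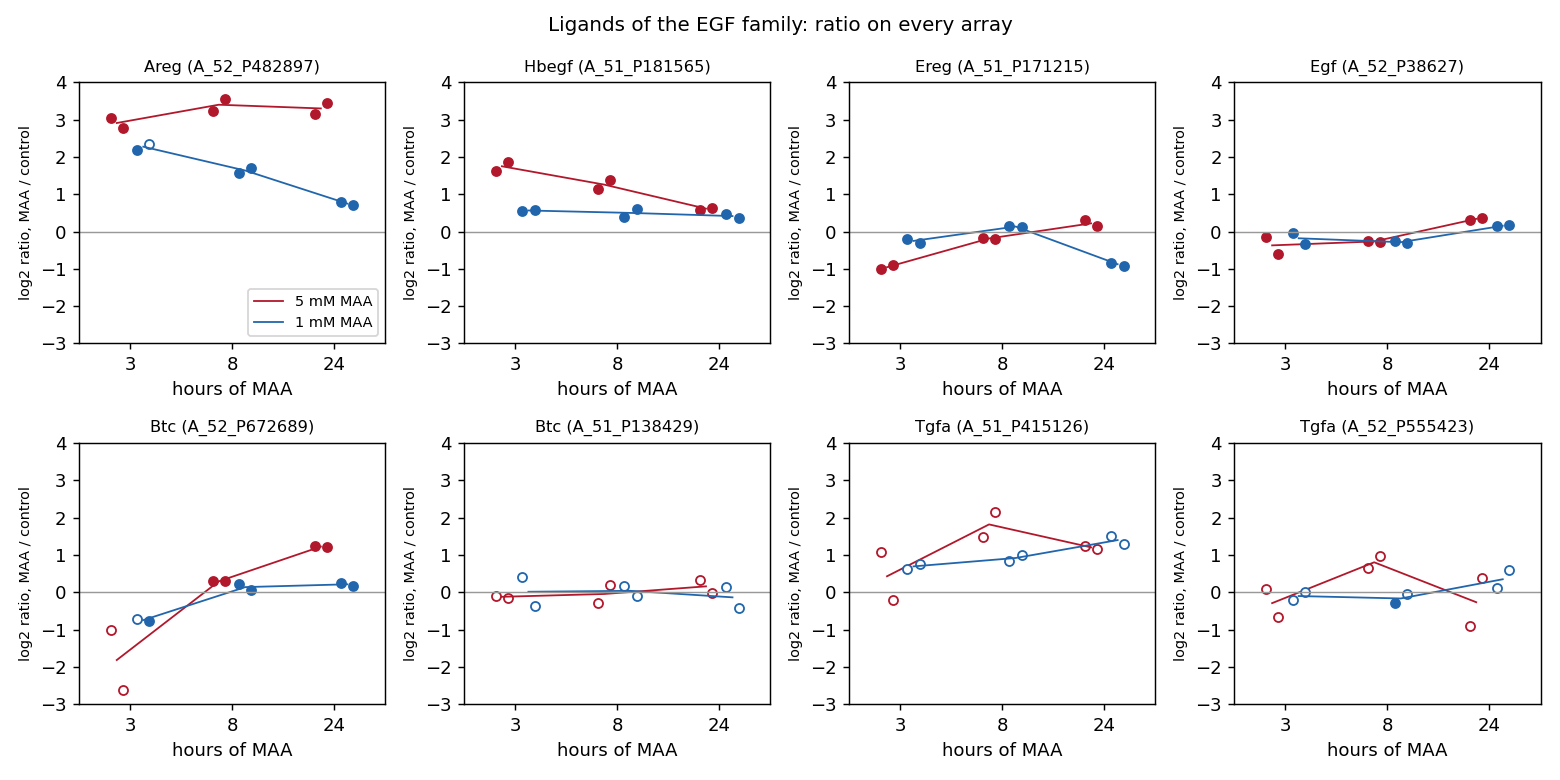
Log2 ratio of MAA over control for each ligand probe on every array, against hours of exposure, at 5 mM (red) and 1 mM (blue); points are arrays, lines join the means of 2 arrays, and open points mark arrays where a channel was not well above background. Areg stays near 3 at 5 mM and has means of 2.28 at 3 h and 0.75 at 24 h of 1 mM, Hbegf declines at 5 mM, and the Tgfa probes and 1 Btc probe are mostly open.

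Areg responded more to the higher concentration at both later times. The log2 ratio differed between 5 mM and 1 mM by 1.77 at 8 h (95% interval 1.40 to 2.14, limma adjusted p = 0.00172) and by 2.55 at 24 h (2.18 to 2.92, limma adjusted p = 0.000611). Between 24 h and 8 h it differed by -0.10 at 5 mM, with an interval from -0.47 to 0.27 (limma adjusted p = 0.795). The same difference at 1 mM, a comparison added after the data had been seen, was -0.89 (-1.26 to -0.52) and missed the threshold (limma adjusted p = 0.0716).

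The Areg signal was low in untreated cells. The processed control signal was 29.4 and 32.1 on the arrays of 5 mM and 3 h, 160 and 116 at 8 h, and 70.2 and 50.3 at 24 h. On the arrays of 1 mM it was 13.7 and 10.1, 37.8 and 35.3, and 17.8 and 16.6 at the 3 times. The MAA signal reached 1520 and 1370 at 5 mM and 8 h, its highest, and was 27.2 and 30.6 at 1 mM and 24 h, its lowest. One control channel of 12, at 1 mM and 3 h, was not well above background. After normexp correction with an offset of 50, which exceeds 8 of the 12 control signals of Areg, and loess, the log2 ratio was 1.58, 2.87 and 2.31 at 3, 8 and 24 h of 5 mM. The 1 mM values were 0.44, 0.97 and 0.13 under the same correction, and the calls at 3 h and 24 h were lost.

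The control channel of Areg also differed with the concentration of MAA on the same array. Levels were scaled so that the mean of both log2 channels had the same distribution on every array, which leaves the ratios unchanged. The log2 level of the Areg control channel was 5.19, 6.63 and 5.50 at 3, 8 and 24 h on the 5 mM arrays. On the 1 mM arrays it was 4.12, 5.31 and 4.05. The difference was 1.07, 1.32 and 1.45. For the probes of Ereg, Egf, Hbegf and Egfr, above background in every channel, it lay between -0.03 and 0.15. For A_52_P432949, named Erbb3 by the study alone, also above background throughout and described further on, it was 0.19, 0.27 and 0.29. Some dim probes differed too, among them A_51_P342050 of Erbb3 by 0.80, 0.63 and 0.09 and A_51_P415126 of Tgfa by 0.18, 0.46 and 0.42. Others did not differ in this way. A_52_P672689 of Btc, with control levels in the range of Areg, differed by -0.09, -0.13 and 0.04. For A_52_P555423 of Tgfa the differences were 0.03, -0.33 and 0.10. The part of this in the Areg ratios was not tested.

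**Figure D2:**
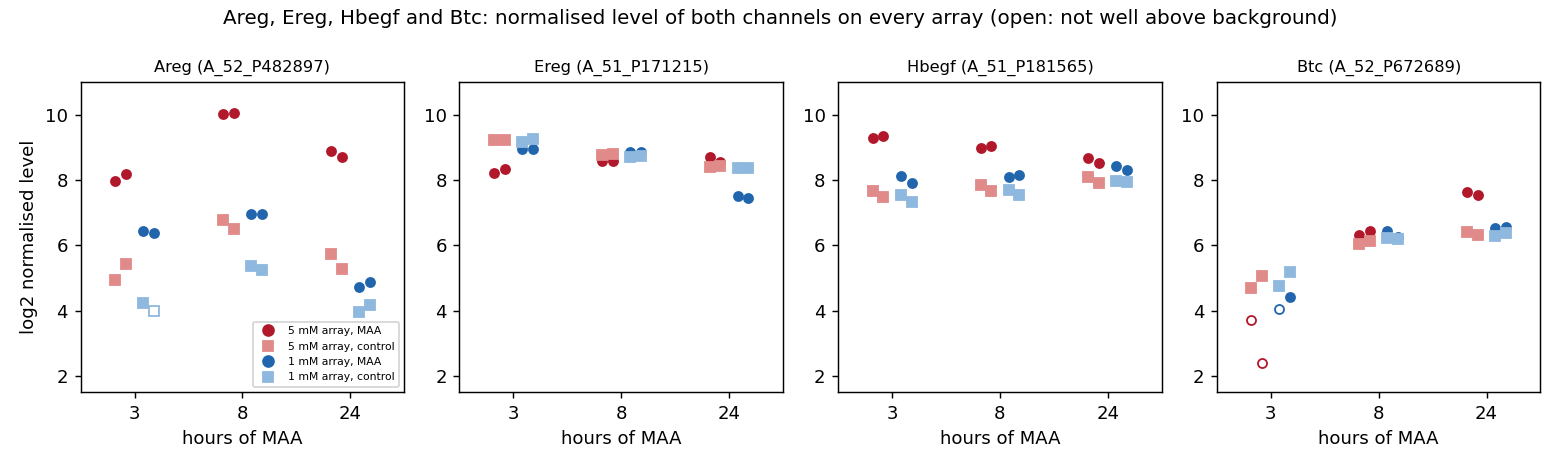
Normalised log2 level of the MAA (circles) and control (squares) channels of each array for Areg, Ereg, Hbegf and Btc, against hours of exposure, for 5 mM arrays (red) and 1 mM arrays (blue); open symbols were not well above background. The Areg control squares of the 5 mM arrays lie above those of the 1 mM arrays at each time, while those of Ereg coincide and decline with time.

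Hbegf encodes heparin-binding EGF-like growth factor, an early response ligand of Egfr. Its log2 ratio was 1.63 and 1.87 at 3 h, 1.14 and 1.38 at 8 h, and 0.59 and 0.64 at 24 h of 5 mM. With 1 mM it was 0.56 and 0.57, 0.39 and 0.61, and 0.47 and 0.36. Every array lay above 0, and at 5 mM the 3 times did not overlap. Hbegf rose 2.40-fold at 5 mM and 8 h (log2 1.26, SE 0.0904, limma adjusted p = 5.94e-05). At 24 h the ratio was 1.53-fold (limma adjusted p = 0.00173) and under the fold threshold. The difference of 24 h from 8 h at 5 mM was -0.65 (95% interval -0.95 to -0.35, limma adjusted p = 0.0221). The 1 mM ratios, from 1.33-fold to 1.48-fold with limma adjusted p between 0.0164 and 0.0268, also stayed under the fold threshold. The concentrations differed by 0.76 at 8 h (0.46 to 1.06, limma adjusted p = 0.0117). At 24 h the difference of 0.20 had an interval from -0.10 to 0.49.

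Ereg encodes epiregulin, a ligand of Egfr and Erbb4 whose gene lies next to Areg on chromosome 5, in the order Epgn, Ereg, Areg, Btc of protein-coding genes. It was well above background in all 24 channels, with control signals from 313 to 639. The log2 ratio at 5 mM was -1.01 and -0.90 at 3 h, -0.17 and -0.20 at 8 h, and 0.30 and 0.14 at 24 h. The 1 mM arrays gave -0.20 and -0.30, 0.15 and 0.12, and -0.83 and -0.92. The lowest arrays were thus those of 3 h at the higher and of 24 h at the lower concentration. Ereg fell by 0.88 on the log2 scale at 1 mM and 24 h, which is 1.84-fold lower (SE 0.066, limma adjusted p = 0.000548). After the normexp correction that value was -0.50 and not called. The 3 h mean at 5 mM of -0.95, or 1.93-fold lower, was just under the 2-fold threshold, and it was -0.84 after centring each array.

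The late responses of Ereg to the 2 concentrations pointed opposite ways. The log2 ratio at 24 h was 0.22 at 5 mM and -0.88 at 1 mM, a difference of 1.10 (95% interval 0.88 to 1.32, limma adjusted p = 0.00149). Between 24 h and 8 h it differed by 0.41 at 5 mM (0.19 to 0.63, limma adjusted p = 0.0373) and by -1.01 at 1 mM (-1.23 to -0.79, limma adjusted p = 0.0112). In control channels its normalised level declined with time, with a median of 9.23 at 3 h, 8.75 at 8 h and 8.39 at 24 h over 4 channels each. The 3 ranges did not overlap, and control channels of one time may share cultures. Areg rose at 1 mM and 24 h, where its neighbour Ereg fell.

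Btc encodes betacellulin, the next gene after Areg and a ligand of Egfr and Erbb4. Of its 2 probes, A_51_P138429 was not well above background in any channel. The other, A_52_P672689, had log2 ratios of -1 and -2.63 at 5 mM and 3 h, with MAA signals of 13 and 3.78 that were not well above background against control signals of 26 and 23.5. The decrease there was at least 2.13-fold. At 8 h the ratios were 0.30 and 0.29, and at 24 h 1.23 and 1.22. With 1 mM they were -0.71 and -0.78 at 3 h, 0.21 and 0.07 at 8 h, and 0.25 and 0.18 at 24 h. The control level of this probe had a median of 4.90 at 3 h, 6.16 at 8 h and 6.36 at 24 h. After 24 h of 5 mM Btc rose 2.34-fold (log2 1.23, SE 0.303, limma adjusted p = 0.0184). The near-equal arrays at that treatment share a spread estimated over all 12 arrays, and the call was lost under 5 of the alternatives and on leaving out any 1 of 10 arrays, although the value stayed at 1.22 or 1.23 in all but the normexp correction (0.85). The difference of 5 mM from 1 mM at 24 h was 1.01 (interval 0.01 to 2.01, limma adjusted p = 0.224).

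Tgfa encodes transforming growth factor alpha, a ligand of Egfr. Both of its probes were near background, and A_51_P415126, the mean of 10 spots, was well above background in no control channel. Its log2 ratio was 1.07 and -0.21 at 3 h, 1.48 and 2.16 at 8 h, and 1.25 and 1.16 at 24 h of 5 mM. On 1 mM arrays it was 0.63 and 0.76, 0.84 and 1.00, and 1.51 and 1.29. Only the bright side is a measurement, so the increase was at least 2.17-fold at 5 mM and 8 h (limma adjusted p = 0.00182), at least 1.82-fold at 24 h (0.0131) and at least 1.57-fold at 1 mM and 24 h (0.0191). The p-values test the plain ratios, with control signals not well above background, and not the bounds. The normexp correction brought these ratios to 0.43, 0.20 and 0.13, and none was then called. The second probe, A_52_P555423, was not called at any treatment, with means from -0.29 to 0.80. After 24 h of 5 mM the probes differed by 1.47 (limma diffSplice adjusted p = 0.0652).

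Egf encodes the founding ligand and was read by 1 probe of 10 spots, above background in all 24 channels. Its log2 ratio was -0.15 and -0.59 at 3 h, -0.26 and -0.27 at 8 h, and 0.31 and 0.37 at 24 h of 5 mM. At 1 mM the 6 arrays lay between -0.33 and 0.17. None of the means passed the fold threshold, and the difference of 24 h from 8 h at 5 mM, 0.61 (interval 0.25 to 0.97), missed the threshold with a limma adjusted p of 0.054.

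Egfr, the receptor shared by these ligands, was read by 4 probes above background in every channel, A_51_P392242 and A_52_P56471 under one RefSeq transcript and A_52_P106259 and A_52_P674338 under another. Egfr is known to be made also as shorter transcripts that lack the kinase part. Where each probe lies in the transcripts was not analysed here. No probe passed the fold threshold at any treatment, and at 5 mM and 3 h the means lay between -0.06 and 0.04. At 8 h of 5 mM the log2 ratio was -0.19 and -0.16 for A_51_P392242, -0.27 and -0.34 for A_52_P56471, -0.61 and -0.52 for A_52_P106259, and -0.53 and -0.53 for A_52_P674338. At 24 h it was -0.40 and -0.43, -0.34 and -0.26, 0.05 and -0.09, and 0.10 and 0.01 in the same order. All 4 probes were thus below 0 at 8 h, the second pair furthest. At 24 h the first pair was still low, while the second was near 0.

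The tests bore on the pairs of Egfr probes as follows. At 8 h the second pair was 1.48-fold lower (log2 -0.56, limma adjusted p = 0.000533) and 1.44-fold lower (-0.53, limma adjusted p = 0.000461). The first pair was lower by less there, -0.18 for A_51_P392242 (limma adjusted p = 0.0403) and -0.30 for A_52_P56471 (limma adjusted p = 0.0163). After 24 h A_51_P392242 was 1.33-fold lower (-0.41, limma adjusted p = 0.000889) and A_52_P56471 again stood at -0.30 (limma adjusted p = 0.0183). Between 24 h and 8 h the second pair differed by 0.54 (interval 0.32 to 0.76, limma adjusted p = 0.0145) and 0.58 (0.38 to 0.78, limma adjusted p = 0.00774), and the first pair by -0.24 (-0.41 to -0.06, 0.103) and 0.01 (-0.24 to 0.25, 0.985). Each probe was then set against the other probes of the gene, a test added after these values had been seen. At 24 h A_51_P392242 lay 0.32 below the others (limma diffSplice adjusted p = 0.000799), A_52_P674338 lay 0.30 above (0.00168) and A_52_P106259 0.19 above (0.049), while 4.78% of 11043 probes of genes with several probes passed. At 8 h A_51_P392242 lay 0.29 above (limma diffSplice adjusted p = 0.00253) and A_52_P106259 0.23 below (0.0177), where 4.26% passed. A_52_P674338 at 8 h (limma diffSplice adjusted p = 0.0826) and A_52_P56471 at 8 h and 24 h (0.387 and 0.0983) did not pass.

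**Figure D3:**
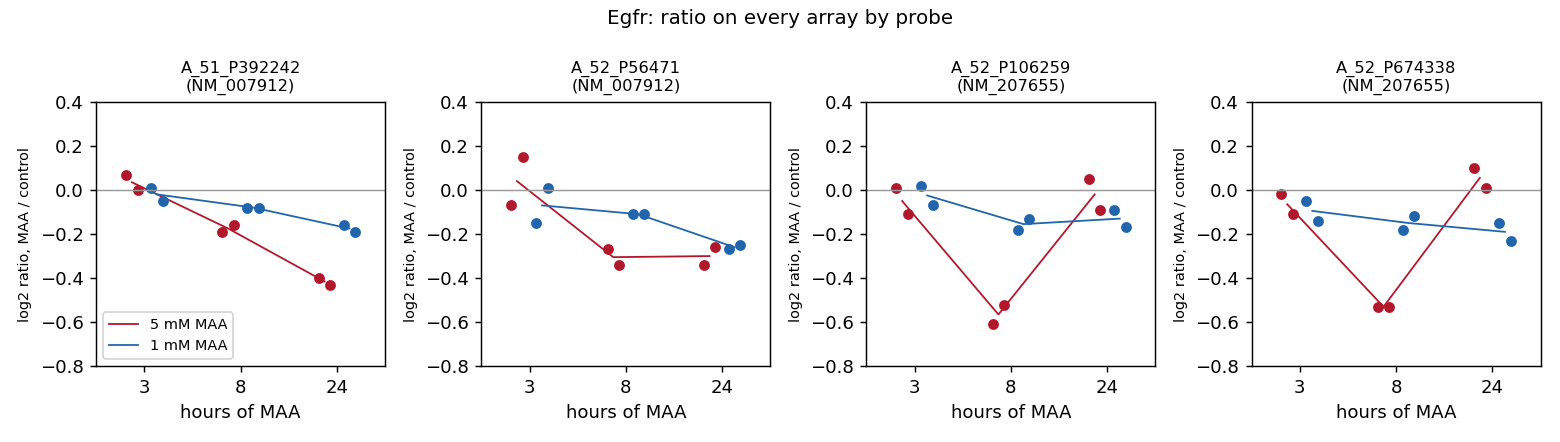
Log2 ratio of MAA over control of the 4 Egfr probes on every array, against hours of exposure, at 5 mM (red) and 1 mM (blue); points are arrays and lines join the means of 2. The left pair of probes is lowest or as low at 24 h of 5 mM, and the right pair dips to -0.56 and -0.53 at 8 h and returns to -0.02 and 0.05 at 24 h.

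At 1 mM the Egfr means lay between -0.26 and -0.02 over all probes and times, and the smallest limma adjusted p was 0.0665. At 8 h the concentrations differed by -0.41 for A_52_P106259 (interval -0.62 to -0.19, limma adjusted p = 0.0349) and by -0.38 for A_52_P674338 (-0.58 to -0.18, limma adjusted p = 0.0325). In control channels the normalised level of every Egfr probe was higher at each later time, without overlap between times. For A_51_P392242 the median was 10.45, 10.74 and 12.09 at 3, 8 and 24 h, and for A_52_P106259 it was 13.60, 14.10 and 14.61. These are levels of single probes without a test, since control cultures may be shared.

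Erbb3 encodes the neuregulin receptor with an impaired kinase that signals through its partners. Its 4 matched probes were near background in control cells, and A_52_P133607 was not well above background in any channel. For A_51_P342050, the probe whose letters are printed above, the log2 ratio was 1.14 and 2.47 at 3 h, 1.48 and 1.76 at 8 h, and 1.74 and 1.76 at 24 h of 5 mM. The 1 mM arrays gave 1.37 and 1.80, 1.08 and 0.59, and -0.10 and 0.89. All arrays of 5 mM were above 1, and those of 1 mM and 24 h, one on each side of 0, were not separated from those of 8 h. At 24 h of 5 mM the increase was at least 2.88-fold for A_51_P342050 (limma adjusted p = 0.00569), at least 1.87-fold for A_51_P414813 (0.0163) and at least 1.93-fold for A_51_P488243 (0.000711). At 8 h it was 3.08-fold for the first, with 1 of 2 control channels above background (limma adjusted p = 0.00782), and at least 1.75-fold for A_51_P488243 (0.000763). The p-values beside these bounds test the plain ratios, with control signals not well above background, and not the bounds. A_51_P414813 was not called at 8 h, where 1 of its 2 control channels was above background. At 1 mM and 3 h A_51_P342050 was called with 1 MAA channel of 2 above background, and no bound above 1 could be given. After the normexp correction the ratios of the 4 probes lay between -0.06 and 0.45, and no call remained. The ratios of A_51_P488243 passed the test between concentrations at 8 h and 24 h, but its control channels were not well above background on any array, nor were its MAA channels at 8 h of 1 mM. At 24 h its control level was 1.69 on the 5 mM and 3.03 on the 1 mM arrays, so no size is given for these differences.

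One further probe, A_52_P432949, is named Erbb3 only in the study's supplementary tables, which list responding probes, so it was chosen for its response and stands outside the counts. It was above background in every channel, with control signals from 503 to 2410 and MAA signals from 1560 to 14300. The log2 ratio was 2.53 and 2.34, 2.57 and 2.68, and 2.80 and 2.96 at 3, 8 and 24 h of 5 mM. With 1 mM it was 1.71 and 1.64, 1.09 and 1.19, and 1.46 and 1.56. All 12 arrays were above 1, those of 5 mM above those of 1 mM, and after the normexp correction its means lay between 1.13 and 2.85. Whether it reads the same transcript as the matched probes was not tested.

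**Figure D4:**
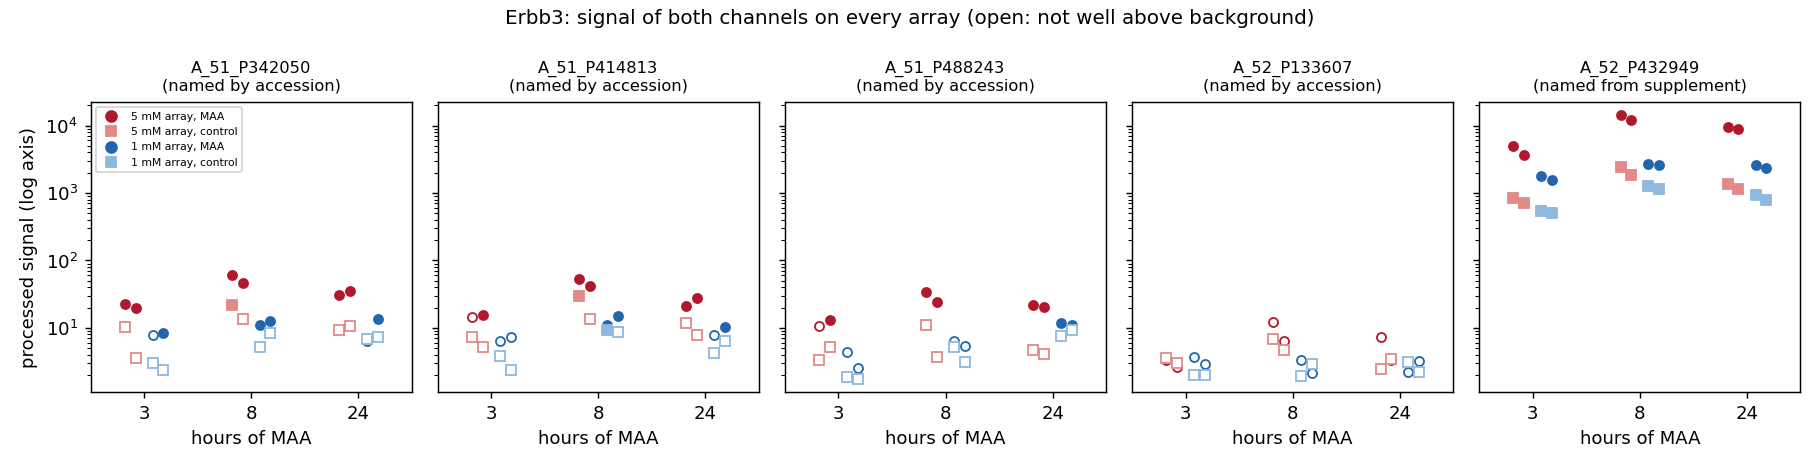
Processed signal (log axis) of the MAA (circles) and control (squares) channels of every array for the 4 Erbb3 probes named by accession and the probe named from the supplement, against hours of exposure, for 5 mM arrays (red) and 1 mM arrays (blue); open symbols were not well above background. The control squares of the first 4 probes are nearly all open, and the fifth lies between 503 and 14300.

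The 5 probes whose ratios across the 12 arrays were most like those of Areg belonged to 4 genes, among 15028 probes above background. Mboat2, a lysophospholipid acyltransferase, gave r = 0.990 and 0.970 with its 2 probes, whose log2 ratios were only 0.32 to 0.48 at 5 mM. Thsd1 gave r = 0.965, with means of 1.44, 1.87 and 1.76 at 5 mM and 1.32, 0.88 and 0.63 at 1 mM. Wdyhv1 (r = 0.964) and Shq1 (r = 0.959) followed. These values describe arrays that share treatments, and were chosen as the highest.

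Genes around the receptors were grouped into lists, whose counts stand beside the share of all probes called. Of 5 other family genes 3 had a probe (Epgn among them, with means from -0.54 to -0.21), and none was called at any treatment. Among 12 genes of ligand shedding, Rhbdf2, an iRhom that carries the sheddase Adam17 to the surface, rose at all 3 times of 5 mM, with log2 ratios of 1.78, 1.07 and 1.34 for A_52_P382854, and at 3 h of 1 mM (0.81). Its second probe was called at 3 h alone (1.10). Adam12, a metalloprotease that can release Hbegf, fell at 8 h (-2.21 and -1.91 with its 2 probes) and 24 h of 5 mM (-1.84 and -2.11), and 1 of them at 8 h of 1 mM (-0.83). Adam8 rose by 1.14 at 24 h. Adam17 itself was not called, with ratios from 0.16 to 0.23 at 3 h. At 3 h of 5 mM 2 of the 20 shedding probes were called up beside 2.02% of all probes. At 8 h 1 was called up and 2 down (3.06% and 2.49% of all probes), and at 24 h 2 up and 2 down (3.85% and 1.77%). With 1 mM, 1 was called up at 3 h (1.32% of all probes) and 1 down at 8 h (0.656%). The median of the list was 0.19, 0.09 and -0.07 at 3, 8 and 24 h of 5 mM beside -0.10, -0.04 and 0.03 over all probes.

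Among the 35 genes of signal relay with a probe, the adaptors, Ras, Raf, ERK and lipid kinases, Pik3cb at 8 h (1.07) and Plcg2 at 24 h (1.01) were called at 5 mM, each 1 of 54 probes beside 3.06% and 3.85% of all probes called up. Nothing particular to the list is read from these counts, and no relay probe was called at 1 mM. Of 13 receptor brakes, Errfi1, an inhibitor that binds the Egfr kinase, rose by 1.36 and the phosphatase Ptpn1 by 1.13 at 3 h of 5 mM, and Lrig1 by 1.02 at 8 h. These were 2 of 19 probes at 3 h and 1 at 8 h, beside 2.02% and 3.06% of all probes. Of 7 genes of ERK feedback, Spry1 (1.53), Dusp6 (1.31) and Spry4 (1.19) rose at 3 h of 5 mM, 3 of 9 probes beside the same 2.02%. The second Spry4 probe, not above background at 3 h or 8 h of 5 mM, was not called there (-0.14 and -0.19). At 8 h Spry4 fell by 1.16 with its first probe, and at 24 h Dusp6 rose by 1.01. Each was 1 of 9 probes, beside 2.49% of all probes called down at 8 h and 3.85% called up at 24 h. At 1 mM Spry1 rose by 0.70 at 3 h and 0.70 at 8 h and Spred2 by 0.61 at 8 h. These were 1 and 2 of 9 probes at 3 h and 8 h, beside 1.32% and 1.72% of all probes. The limma adjusted p of calls in the shedding, brake and feedback lists lay between 2.04e-05 and 0.0203 at 3 h of 5 mM.

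Immediate early genes, the transcription factors and relatives that growth factors induce within an hour, were read by 16 probes. Of 12 genes, 5 rose at 3 h of 5 mM, with Egr1 at 2.18, Fos at 1.84, Egr2 at 1.70, Ier3 at 1.33 and Ier2 at 1.24, beside 2.02% of all probes called up. At 8 h 5 rose, Fos (1.77), Egr2 (1.63), Ier3 (1.26), Jun (1.16) and Atf3 (1.11), beside 3.06% of all probes. At 24 h 3 rose, Egr1 (1.72), Egr2 (1.69) and Fos (1.08), beside 3.85%. At 1 mM 2 rose at 3 h (Egr2 and Egr1), 1 at 8 h (Fos) and 2 at 24 h (Jun and Egr2), none above 1.01, beside 1.32%, 1.72% and 3.26% of all probes. Their limma adjusted p lay between 1.31e-05 and 0.000381 at 5 mM. The list median was 0.74, 0.46 and 0.57 at the 3 times of 5 mM, beside -0.10, -0.04 and 0.03 over all probes.

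**Figure D5:**
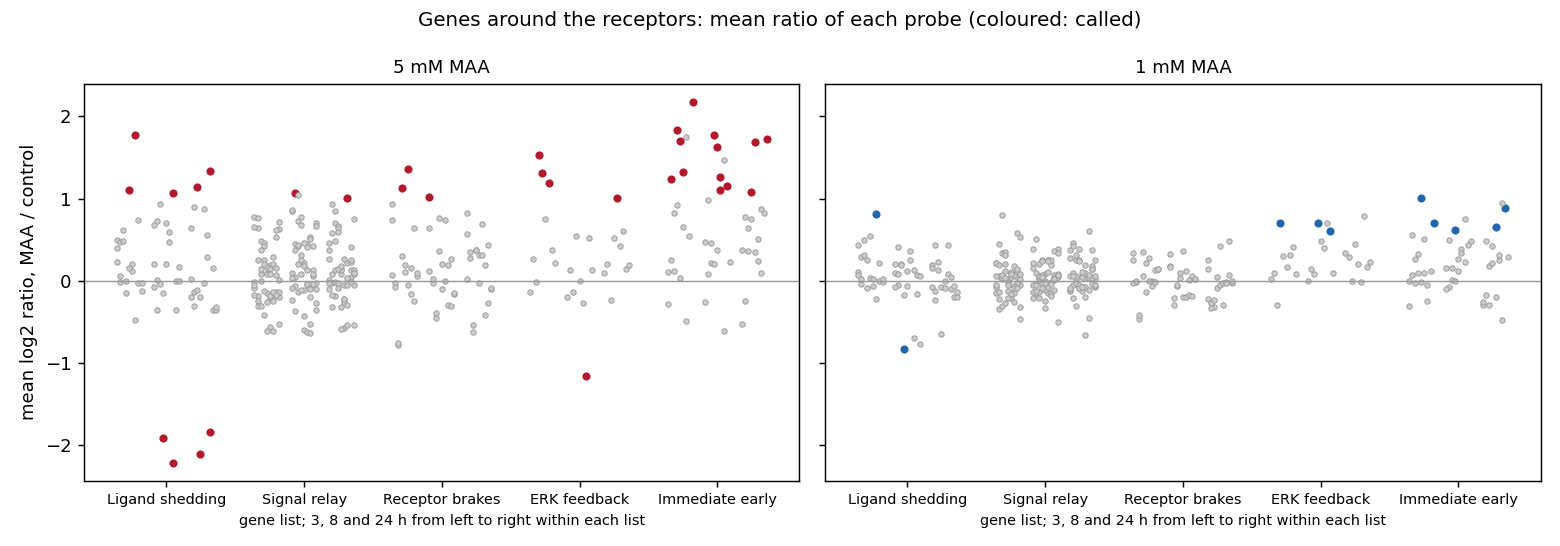
Mean log2 ratio of MAA over control of each probe in 5 gene lists around the receptors, at 5 mM (left) and 1 mM (right), with 3, 8 and 24 h side by side within a list; coloured points were called. Most signal relay points stay grey between -1 and 1, and coloured points of the immediate early list reach 2.18 at 5 mM.

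The cell line was checked against markers in control channels. Of 8 Leydig genes, Star, Cyp17a1 and Insl3 were above background in all 12 control channels, and Cyp11a1, Hsd3b1 and Lhcgr, defining genes of steroidogenic Leydig cells, in none. Of 6 peritubular and fibroblast genes 5 were above background throughout, of 6 Sertoli genes 2, of 6 germ cell genes 3, of 4 epithelial genes 2, of 3 macrophage genes 1 and of 4 endothelial genes 0. A gene was counted if any of its probes was above background in all 12 control channels. The germ cell gene Prm1 had other probes above background in only 1 and 0 of them, and the Sertoli gene Sox9 had 1 in only 3. Some moved with MAA beside the family. Summed levels of the 6 Sertoli genes at 24 h of 5 mM were 1070 to 1080 with MAA and 531 to 577 in controls. Of these genes Rhox5 (1.28) and Dhh were called up there, while Sox9, Amh, Fshr and Cldn11 were not called. Those of the macrophage genes, of which Cd14 alone was above background in control cells, were 327 to 348 and 926 to 931. Krt8, an epithelial keratin, rose by 1.76 and 1.84 with 2 probes at 24 h, and Cd14 fell by 1.64. Another macrophage gene, Adgre1, went the other way with 1 of its 2 probes, called up at 24 h of 5 mM (2.85) and of 1 mM (2.87) with control channels not well above background, while its second probe was not above background in either channel. The Sertoli gene Dhh at all 3 times and Cyp11a1 at 24 h of 5 mM were called up with control channels mostly not well above background. Another Leydig gene, Insl3, was called down at 24 h of 5 mM (-1.11), with both channels above background on each array. Of the peritubular and fibroblast probes, 1 of Acta2 was called up (1.25) and that of Col1a2 down (-1.30) at that treatment. In bulk RNA, more cells of a kind and more RNA per cell cannot be told apart, and the part of these markers in the ratios of the family was not tested.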

How the data were processed

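The authors scanned two-colour Agilent arrays and used Feature Extraction 9.5.3.1 (version per the file headers) with linear and LOWESS dye normalization; the deposited intensity values are the processed signals of both channels. The deposited log10 ratios were already turned to MAA over control and were used as an alternative. Flags in the deposited files mark outlier spots and signals well above background. Of 45018 spots 1639 controls were left out, outlier spots were excluded and repeated spots averaged. Log2 ratios were not centred. limma 3.58.1 in R 4.3.3 fitted 1 coefficient per treatment over 12 arrays (6 residual and 1.515 prior degrees of freedom), in place of the Rosetta error model, with Benjamini-Hochberg adjustment over 41174 probes. Differences between treatments were called at an adjusted p under 0.05. Replicates were separate pools of MAA-treated cultures. Single-channel levels were scaled by Aquantile. Probes were named by unversioned RefSeq accession instead of the symbol. A bound divides the bright mean by the higher of the dim signal and the lowest signal above background on each array. Where the dim signal was the higher, it entered as read, so the bound is approximate. Any p-value beside a bound tests the plain ratio. The text names every member probe, the 5 probes most like Areg, and up to 6 called genes of each list. Members and lists were chosen with earlier results of these data known. In a test on simulated data for 8 h of 5 mM (41016 probes), 95% of 4-fold changes were recovered and 36 unchanged probes were called. Of the same changes, 64.5% passed the test between 24 h and 8 h of 5 mM. The simulated noise was independent between arrays, unlike the deviations of same-numbered arrays described below. Alternatives were other background correction, ratios, centring, filters, blocks, arrays and thresholds. Figures used matplotlib.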

Additional observations from a re-analysis of the deposited data

Results flagged for a closer look

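Differences between treatments that passed the test are collected here. Between 24 h and 8 h of 5 mM, the log2 ratio differed by 0.41 for Ereg, -0.65 for Hbegf, and 0.54 and 0.58 for the Egfr probes A_52_P106259 and A_52_P674338. Between 5 mM and 1 mM at 8 h it differed by 1.77 for Areg, 0.76 for Hbegf, -0.41 and -0.38 for the same Egfr probes and 1.62 for the Erbb3 probe A_51_P488243. At 24 h the concentrations differed by 2.55 for Areg, 1.10 for Ereg and 1.79 for A_51_P488243. The control channels of A_51_P488243 were not well above background on any array, so its values are not sizes of a change, and its control level at 24 h was 1.69 on 5 mM and 3.03 on 1 mM arrays. Between 24 h and 8 h of 1 mM, Ereg differed by -1.01. Of all probes, 8.91%, 10.1%, 8.41% and 0.576% passed in these 4 comparisons, in that order.

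Some responses had opposite signs on every array of a pair of treatments, and these differences were not tested. From 3 h to 24 h of 5 mM the log2 ratio changed by 1.17 for Ereg, 3.04 for the Btc probe A_52_P672689, 0.71 for Egf and 0.12 for the Egfr probe A_52_P674338. The means of that Egfr probe, -0.06 and 0.05, were both near 0. After centring each array on its median they were 0.04 and 0.04, so its change of sign was lost. From 3 h to 8 h of 5 mM the Btc probe changed by 2.11. At 1 mM, Ereg changed by 0.39 and the Btc probe by 0.88 from 3 h to 8 h, and from 3 h to 24 h the Btc probe changed by 0.96 and Egf by 0.33. The Btc values rest on 3 h arrays where the MAA signal was not well above background, on both at 5 mM and 1 at 1 mM, and are not sizes of a change.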

How the results depend on the processing

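Signal over background limits the Tgfa and Erbb3 probes and 1 Btc probe, and the small number of arrays limits the differences between treatments. No called ratio changed sign under any alternative. With normexp and loess the family probes called numbered 2, 2 and 1 at 3, 8 and 24 h of 5 mM and 0, 1 and 0 at 1 mM, and Areg was called at each time of 5 mM and at 8 h of 1 mM. The offset of 50 shrinks ratios of dim probes by construction. Fitting each concentration alone gave 3 calls at 24 h of 5 mM, and 4 and 2 at 3 h and 8 h of 1 mM. The slide as a block gave 5 and 2 at 3 h and 8 h of 1 mM. An adjusted p under 0.05 with no fold threshold gave 10 calls at 8 h and 10 at 24 h of 5 mM, and 2 at 8 h of 1 mM. Centring each array left 0 differences of 24 h from 8 h at 5 mM and 2 of 5 mM from 1 mM at 8 h. Fitting only the arrays compared left 0 in each of the 4 comparisons. The deposited log10 ratios gave 5 differences between concentrations at 24 h and 2 between 24 h and 8 h of 1 mM. In that last comparison, leaving out dim probes also gave 2, as did an unadjusted p under 0.005. The comparison of 24 h with 8 h at 1 mM and the further tests of probes within a gene were chosen after seeing the data. The cause of these changes was not tested.

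With any single array removed, the calls numbered 4 to 6, 3 to 6 and 2 to 5 at 3, 8 and 24 h of 5 mM, and 1 to 4, 1 to 2 and 2 to 3 at 1 mM. The lone array was then assumed to vary like the others. At 24 h of 5 mM, 2 or 3 calls were left without either array of that treatment or either array of 1 mM at 8 h or 24 h, and at 8 h of 5 mM 3 without its replicate 2. At 3 h of 1 mM the calls were 1 without either of its arrays and 4 without either 3 h array of 5 mM, and at 8 h of 1 mM 2 without either of the latter or its own replicate 1. The differences numbered 0 to 6 for 24 h from 8 h at 5 mM, 1 to 4 and 2 to 4 for 5 mM from 1 mM at 8 h and 24 h, and 0 to 1 for 24 h from 8 h at 1 mM. For the first, 0 passed without replicate 1 of either 5 mM treatment and 1 without replicate 2 of either. At 8 h the concentrations differed for 1 to 3 probes when 1 array of 8 h or 24 h was left out. The last comparison gave 0 without any of its 4 arrays.

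The replicate number also carries the dye orientation. Deviations of same-numbered arrays were positively correlated over all 15 pairs, between 0.075 and 0.515 with a median of 0.375. Since not every pair exceeded 0.1, the criterion used, and the labels name no shared batch, the fit without the block was kept. With the replicate block, 6, 6 and 4 probes were called at 5 mM and 3, 1 and 3 at 1 mM, and 6, 6, 5 and 2 differences passed in the 4 comparisons, in the order above. The calls lost with the block were those of Tgfa and Btc at 24 h of 5 mM, and A_51_P414813 of Erbb3 was gained at 8 h of 5 mM and 3 h of 1 mM.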
